A study of Gallus gallus with 8 samples.

Results

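The sarcomere and Z-disc genes described here are the contractile and anchoring genes of heart muscle, followed across the hearts of chicken embryos from 4 breeds. Rows of the expression table were taken by symbol: the numbered myosin light chain (MYL), myosin heavy chain (MYH, without MYH7, MYH15 and MYH11), troponin (TNN), tropomyosin (TPM), tropomodulin (TMOD) and alpha-actinin (ACTN) genes. The myozenins (MYOZ), myomesins (MYOM), myosin-binding proteins C (MYBPC), PDZ and LIM domain genes (PDLIM and LDB3), the sarcomeric actins ACTC1 and ACTA1, and CSRP3 completed the list. Of 48 matching rows, 41 reached 1 RPKM (reads per kilobase of gene model, relative to library depth) in at least 2 libraries. These 41 members stand among 11556 genes past that limit and 15873 in the table. The other 7 were MYBPC1, MYH13, MYH1A, MYH1C, MYH1E, MYOM3 and TNNI2. TTN, NEBL and TCAP had no row under those symbols and were not analysed here. TNNI3K, a kinase that binds cardiac troponin I, entered through the start of its symbol, and MYL9, MYL12A, MYH9, MYH10, ACTN1, ACTN4 and TMOD3 serve mainly smooth muscle or non-muscle cells.

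A sarcomere shortens when myosin thick filaments pull on actin thin filaments. Calcium binding to troponin C moves tropomyosin and opens the actin sites, and the light chains tune the myosin heads. Thin filaments are crossed at the Z-disc by alpha-actinin, to which myozenins, LDB3, PDLIM proteins and CSRP3 attach, while myomesins join thick filaments at the M-band. The heart draws these parts from gene families that also hold skeletal, smooth muscle and non-muscle isoforms, and their shares differ between muscle types.

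Embryo hearts were sampled at 16 days of incubation, with 2 RNA sequencing libraries from each breed. Linzhi Tibetan and Lhasa White, named after places in Tibet, form the highland group of 4 libraries. Chahua and White Leghorn (spelled "White leghom" in the labels) form the lowland group of 4. The highland and lowland groups were assigned here from the breed names, since the labels do not state altitude. The labels name no transgene or drug treatment for any group. They give neither sex, nor the oxygen or altitude of incubation, nor whether each library is a separate embryo. P-values here therefore rest on library-to-library spread, which may be technical.

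Mapped reads recovered from the values ran from 17245669 in Chahua 1 to 22157553 in Linzhi Tibetan 2. The members averaged between 21.1 reads per library (MYOZ3) and 162722 (MYL3), with a median of 5505.5, so counting error was small for most and large for the few near 1 RPKM. Lhasa White 2 and Chahua 2 stood apart. MYH7, an atrial myosin heavy chain in the chicken heart, reached 1457 RPKM in Lhasa White 2. Chahua 2 followed with 115, and the remaining 6 libraries held 0.878 to 7.07. Of the 6 atrial markers, BMP-10 and NR2F2 had the same order, with 290 and 66.4 RPKM in Lhasa White 2, 22.4 and 40.2 in Chahua 2, and at most 3.93 and 33.6 in the others. The other 3 did not: NPPA lay within the range of the others in both libraries, and TBX5 (41.8 RPKM) and GJA5 (49.4 RPKM) were lowest of all in Chahua 2. MYH15, a ventricular myosin heavy chain, held 1288 RPKM in Lhasa White 2, below its range of 3198 to 4949 elsewhere, and was highest in Chahua 2. IRX4, the other ventricular marker with a row, was also lowest in Lhasa White 2, at 16.2 RPKM. In Chahua 2 IRX4 was not raised, with 61.7 RPKM against 64.9 to 90.9 in the remaining 6 libraries. All 6 measured fibroblast and matrix markers were also highest in Lhasa White 2, where they summed to 4241 RPKM against 950 to 1708 in the other 7 libraries. In bulk heart RNA, fewer cells of a type and less RNA per cell cannot be told apart.

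The 41 members took between 5.93% (Lhasa White 2) and 7.98% (Chahua 2) of the mapped reads, and between 6.37% and 6.91% in the other 6 libraries. A cardiac isoform held nearly all of most families. Among essential light chains MYL3 held 98.9% to 99.7% of the summed RPKM, TNNT2 held at least 99.9% of troponin T, and TNNC1 held 99.76% to 99.98% of troponin C. TPM4 held 95.9% to 97.8% of tropomyosin and MYOZ2 held 96.7% to 99.2% of the myozenins. Among the families with a mixed make-up were the sarcomeric actins, the myomesins, the PDZ and LIM genes and alpha-actinin, where ACTN2 held 66.4% (Lhasa White 2) to 85.3% (Chahua 2). Regulators of skeletal muscle were near 0 in all 8 libraries, with MYOD1 at most 0.391 RPKM, PAX7 at most 0.0772, MYOG at most 0.0693 and MYF6 at most 0.0456.

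**Figure D1:**
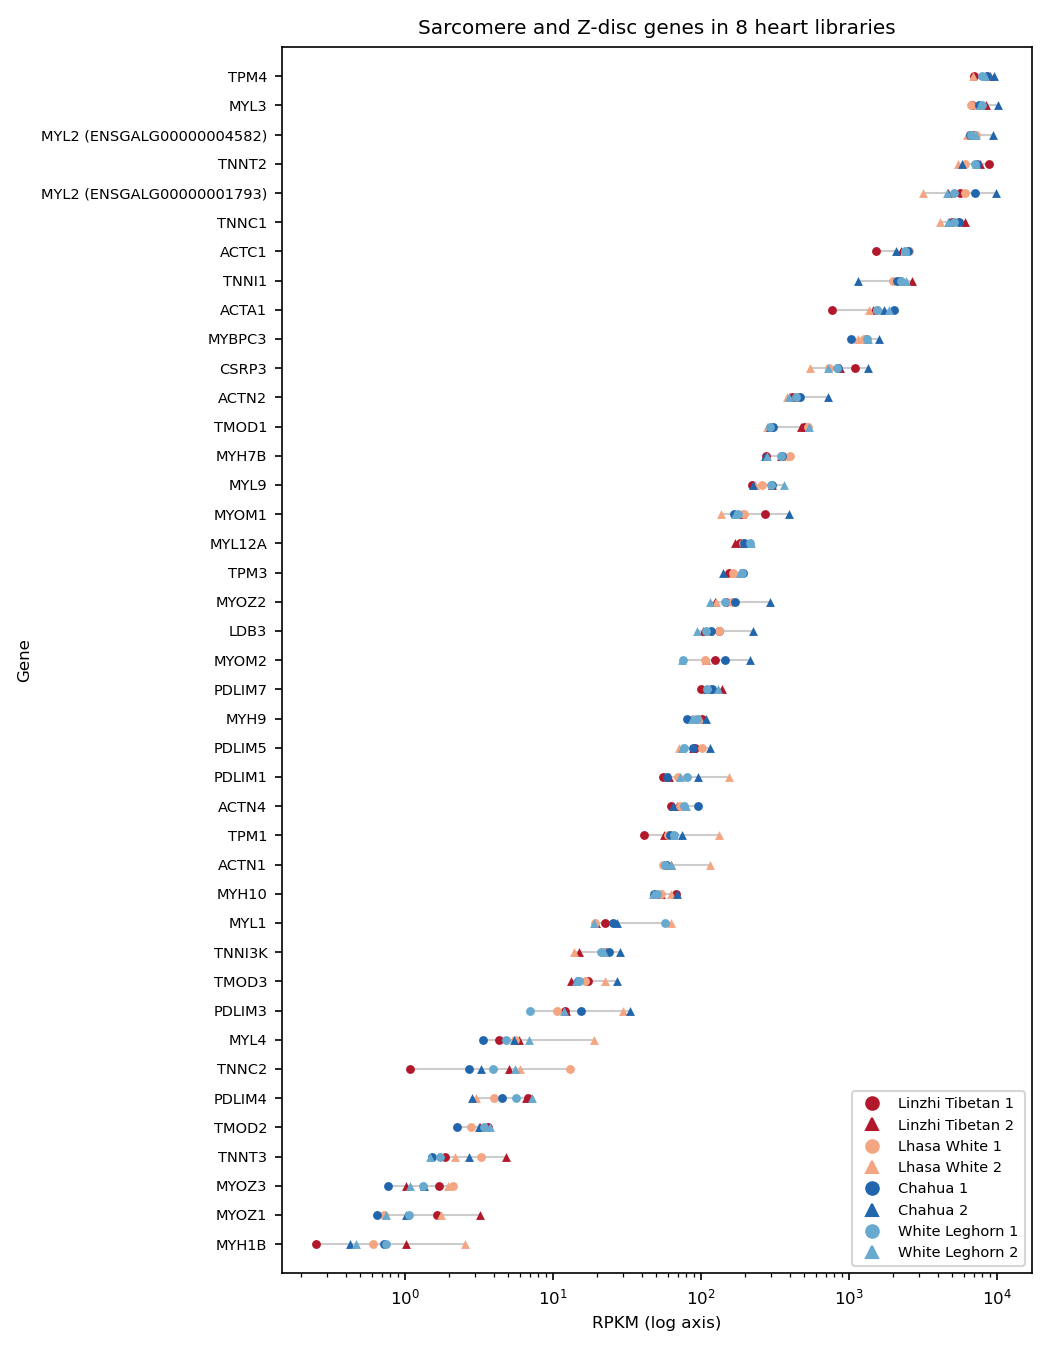
RPKM of each of the 41 members (log axis) with 1 point per library, ordered by mean level, coloured by breed and shaped by replicate. The 5 highest rows, TPM4, MYL3, both MYL2 rows and TNNT2, lie above all other members on average, and the skeletal isoforms TNNC2, TNNT3, MYOZ1 and MYH1B lie near the bottom.

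Thick filament genes were led by the light chains. MYL3, the ventricular essential light chain, held 6806 and 8392 RPKM in the Linzhi Tibetan pair, 6672 and 7491 in the Lhasa White pair, 7609 and 10168 in the Chahua pair, and 7879 and 7713 in the White Leghorn pair. Chahua 2 was the highest library, and the highland and lowland ranges overlapped. MYL2, the regulatory light chain of ventricular muscle, had 2 rows. The row ENSGALG00000004582 held 7016 and 6593 RPKM in the Linzhi Tibetan pair, 7213 and 6245 in the Lhasa White pair, 6559 and 9466 in the Chahua pair, and 6739 and 7273 in the White Leghorn pair. The row ENSGALG00000001793 varied more, with 5602 and 4655 RPKM in the Linzhi Tibetan pair, 6109 and 3186 in the Lhasa White pair, 7169.7 and 9914 in the Chahua pair, and 5154 and 4626 in the White Leghorn pair. It was lowest in Lhasa White 2 and higher in both Chahua libraries than in the other 6. The ratio of the ENSGALG00000001793 row to the other was 1.09 and 1.05 in Chahua and between 0.51 and 0.85 in the other 6 libraries. How reads common to the rows were divided is not given in the sources used here, so the split between them is uncertain.

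Among the light chains, the minor essential ones differed most between single libraries. MYL4, which in mammals is the atrial and embryonic essential light chain, held 4.32 and 5.95 RPKM in the Linzhi Tibetan pair, 5.52 and 18.9 in the Lhasa White pair, 3.38 and 5.46 in the Chahua pair, and 4.83 and 6.90 in the White Leghorn pair. Lhasa White 2 held 3.43 times the level of Lhasa White 1. MYL1, the fast skeletal essential light chain, held 22.7 and 19.5 RPKM in the Linzhi Tibetan pair, 19.3 and 62.5 in the Lhasa White pair, 25.4 and 27.1 in the Chahua pair, and 57.6 and 18.9 in the White Leghorn pair. Its high libraries, Lhasa White 2 and White Leghorn 1, belong to different breeds. MYL12A, a non-muscle regulatory light chain, was the steadiest of the family, with 184 and 171 RPKM in the Linzhi Tibetan pair, 191 and 198 in the Lhasa White pair, 196 and 196 in the Chahua pair, and 214 and 219 in the White Leghorn pair. Both White Leghorn libraries were above the other 6 and both Linzhi Tibetan libraries below them. MYL9, the smooth muscle regulatory light chain, spanned 222 to 363 RPKM and was highest in White Leghorn 2.

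MYBPC3, the cardiac myosin-binding protein C that braces the thick filament, held 1316 and 1325 RPKM in the Linzhi Tibetan pair, 1261 and 1152 in the Lhasa White pair, 1027 and 1606 in the Chahua pair, and 1333 and 1354 in the White Leghorn pair. Both ends of its range were Chahua libraries. Among the heavy chains kept by the rule, MYH7B, a myosin gene of slow and cardiac muscle, was highest with 273 to 398 RPKM. It was above the other 6 libraries in both Lhasa White libraries. The non-muscle heavy chains MYH9 and MYH10 spanned 81.0 to 109 and 47.6 to 69.2 RPKM. MYH1B, a heavy chain of the skeletal myosin cluster, spanned 0.251 to 2.54 RPKM and was highest in Lhasa White 2. Its cluster neighbour MYH1E was under the limit because it reached 1.29 RPKM in Linzhi Tibetan 2 and 0.955 in Lhasa White 1 and at most 0.152 elsewhere. These cluster genes are close paralogs that can share reads.

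Thin filaments carry troponin, tropomyosin and actin. TNNT2, the cardiac troponin T that ties the complex to tropomyosin, held 8848 and 7746 RPKM in the Linzhi Tibetan pair, 6055 and 5502 in the Lhasa White pair, 7346 and 5817 in the Chahua pair, and 7165 and 7192 in the White Leghorn pair. Both Linzhi Tibetan libraries were the highest, and Lhasa White 2 the lowest. TNNI1, the slow skeletal troponin I that also serves the fetal heart in mammals, held 2227 and 2661 RPKM in the Linzhi Tibetan pair, 1988 and 2297 in the Lhasa White pair, 2117 and 1162 in the Chahua pair, and 2251 and 2437 in the White Leghorn pair. Chahua 2 held 0.55 times the level of Chahua 1 while the other 7 libraries lay within 1988 to 2661. TNNC1, the calcium sensor of cardiac and slow muscle, held 4968 and 6122 RPKM in the Linzhi Tibetan pair, 5438 and 4151 in the Lhasa White pair, 5561 and 4782 in the Chahua pair, and 5119.6 and 4701 in the White Leghorn pair. Highland and lowland libraries overlapped for all 3 subunits.

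The troponin subunits with a row did not keep a fixed proportion. No row carried the symbol TNNI3, so troponin I is read here from TNNI1. The RPKM ratio of TNNI1 to TNNT2 was lowest in Chahua 2 at 0.20 and highest in Lhasa White 2 at 0.42, with 0.25 to 0.34 elsewhere. TNNC2, the fast skeletal troponin C, held 1.08 and 5.08 RPKM in the Linzhi Tibetan pair, 13.1 and 6.05 in the Lhasa White pair, 2.70 and 3.27 in the Chahua pair, and 3.97 and 5.53 in the White Leghorn pair. The lowest and the highest library both came from the highland group, and the lowest rested on 16 reads. TNNT3, the fast skeletal troponin T, spanned 1.48 to 4.83 RPKM and was highest in Linzhi Tibetan 2.

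TPM4, the tropomyosin gene with the highest level in these hearts, held 7063 and 8937 RPKM in the Linzhi Tibetan pair, 8648 and 6888 in the Lhasa White pair, 8555 and 9556 in the Chahua pair, and 7939 and 8291 in the White Leghorn pair. TPM1, which encodes the alpha chain of striated muscle and further isoforms of smooth muscle and non-muscle cells, held 41.2 and 56.6 RPKM in the Linzhi Tibetan pair, 60.4 and 132 in the Lhasa White pair, 61.6 and 74.2 in the Chahua pair, and 66.4 and 66.2 in the White Leghorn pair. Lhasa White 2 was the highest library, 2.19 times Lhasa White 1, and both Linzhi Tibetan libraries were the lowest. TPM1 thereby made up 1.84% of the tropomyosin level in Lhasa White 2, where the remaining 7 libraries had 0.568% to 0.810%. TPM3 spanned 142 to 193 RPKM and was lowest in Chahua 2.

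ACTC1, the cardiac alpha-actin, held 1531 and 2245 RPKM in the Linzhi Tibetan pair, 2562 and 2349 in the Lhasa White pair, 2519 and 2085 in the Chahua pair, and 2383 and 2416 in the White Leghorn pair. ACTA1, the skeletal alpha-actin also made in embryonic hearts, held 768 and 1454 RPKM in the Linzhi Tibetan pair, 1552 and 1370.05 in the Lhasa White pair, 2026 and 1729 in the Chahua pair, and 1551 and 1859.6 in the White Leghorn pair. Linzhi Tibetan 1 was the lowest library for both actins, and the ratio of ACTA1 to ACTC1 ran from 0.50 there to 0.83 in Chahua 2. The actins are nearly identical in their coding parts and can share reads. TMOD1, which caps the slow-growing ends of thin filaments, spanned 279 to 541 RPKM and held 90.7% to 96.8% of tropomodulin RPKM. TMOD3, the tropomodulin of non-muscle cells, was highest in Chahua 2 at 27.2 RPKM against 13.2 to 22.4 elsewhere. TMOD2, known from nerve cells, spanned 2.25 to 3.74 RPKM.

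At the Z-disc, the muscle genes ACTN2, CSRP3, MYOZ2 and LDB3 were highest in Chahua 2. ACTN2, the muscle alpha-actinin, held 412 and 427 RPKM in the Linzhi Tibetan pair, 462 and 383 in the Lhasa White pair, 466 and 724 in the Chahua pair, and 439 and 394 in the White Leghorn pair. CSRP3, the muscle LIM protein, held 1098 and 871 RPKM in the Linzhi Tibetan pair, 735 and 545 in the Lhasa White pair, 848 and 1355 in the Chahua pair, and 828 and 719.6 in the White Leghorn pair. For both genes Chahua 2 was highest and Lhasa White 2 lowest. MYOZ2, the cardiac myozenin that binds calcineurin, reached 293 RPKM in Chahua 2 against 115 to 169 elsewhere, and LDB3, a PDZ and LIM protein that binds alpha-actinin, reached 225 against 94.6 to 133. The RPKM ratio to ACTN2 changed less than the levels for MYOZ2, from 0.29 to 0.40, and for LDB3, from 0.24 to 0.32. The CSRP3 ratio varied more than those of MYOZ2 and LDB3, from 1.42 in Lhasa White 2 to 2.67 in Linzhi Tibetan 1. It too varied less than the level of its gene.

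PDLIM1, PDLIM3 and ACTN1 did not share the low level of ACTN2 and CSRP3 in Lhasa White 2. PDLIM1, an adaptor of alpha-actinin in many cell types, held 55.7 and 60.9 RPKM in the Linzhi Tibetan pair, 69.9 and 154 in the Lhasa White pair, 58.8 and 95.7 in the Chahua pair, and 80.4 and 72.0 in the White Leghorn pair. PDLIM3, an adaptor of striated and smooth muscle, held 12.1 and 12.3 RPKM in the Linzhi Tibetan pair, 10.6 and 29.7 in the Lhasa White pair, 15.5 and 33.0 in the Chahua pair, and 7.05 and 11.95 in the White Leghorn pair. Both adaptors were high in Lhasa White 2 and Chahua 2. ACTN1, a non-muscle alpha-actinin, reached 115 RPKM in Lhasa White 2, and the remaining 7 libraries held 55.8 to 62.9. ACTN4, the other non-muscle alpha-actinin, spanned 62.9 to 96.4 RPKM and was highest in Chahua 1. PDLIM5, an adaptor of heart and skeletal muscle, had the order of ACTN2 and CSRP3, with 116 RPKM in Chahua 2 and 70.8 in Lhasa White 2 as its ends. PDLIM7 spanned 100.6 to 138 RPKM and was highest in Linzhi Tibetan 2. Smooth muscle and pericyte markers summed to 187 RPKM in Lhasa White 2 against 115 to 154 elsewhere. Of these, 3 of 6 were highest there, among them MYH11 at 16.7 RPKM against 1.91 to 6.57. The other markers did not follow: ABCC9 was lowest there at 8.02 RPKM against 9.41 to 44.5. SMTN and PDGFRB lay within the range of the remaining 7 libraries. The part of these cell types in the Lhasa White 2 values was not tested.

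MYOM1, the main myomesin of the M-band, held 272 and 189.7 RPKM in the Linzhi Tibetan pair, 197 and 137 in the Lhasa White pair, 168 and 393 in the Chahua pair, and 179 and 171 in the White Leghorn pair. Its range was set by Chahua 2 above and Lhasa White 2 below. MYOM2, a myomesin of adult heart and fast muscle in mammals, held 124 and 109 RPKM in the Linzhi Tibetan pair, 107 and 109 in the Lhasa White pair, 145 and 214 in the Chahua pair, and 75.9 and 74.9 in the White Leghorn pair. Here both Chahua libraries were above and both White Leghorn libraries below the other 4. Of the remaining named members, MYOZ1, a myozenin of fast muscle, held 1.65 and 3.23 RPKM in the Linzhi Tibetan pair, 0.723 and 1.76 in the Lhasa White pair, 0.649 and 1.02 in the Chahua pair, and 1.06 and 0.742 in the White Leghorn pair, on 10 to 64 reads. MYOZ3, also known from skeletal muscle, spanned 0.773 to 2.12 RPKM. TNNI3K held 22.6 and 15.1 RPKM in the Linzhi Tibetan pair, 22.1 and 13.9 in the Lhasa White pair, 23.8 and 28.6 in the Chahua pair, and 21.1 and 22.2 in the White Leghorn pair. Both Chahua libraries were its highest.

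**Figure D2:**
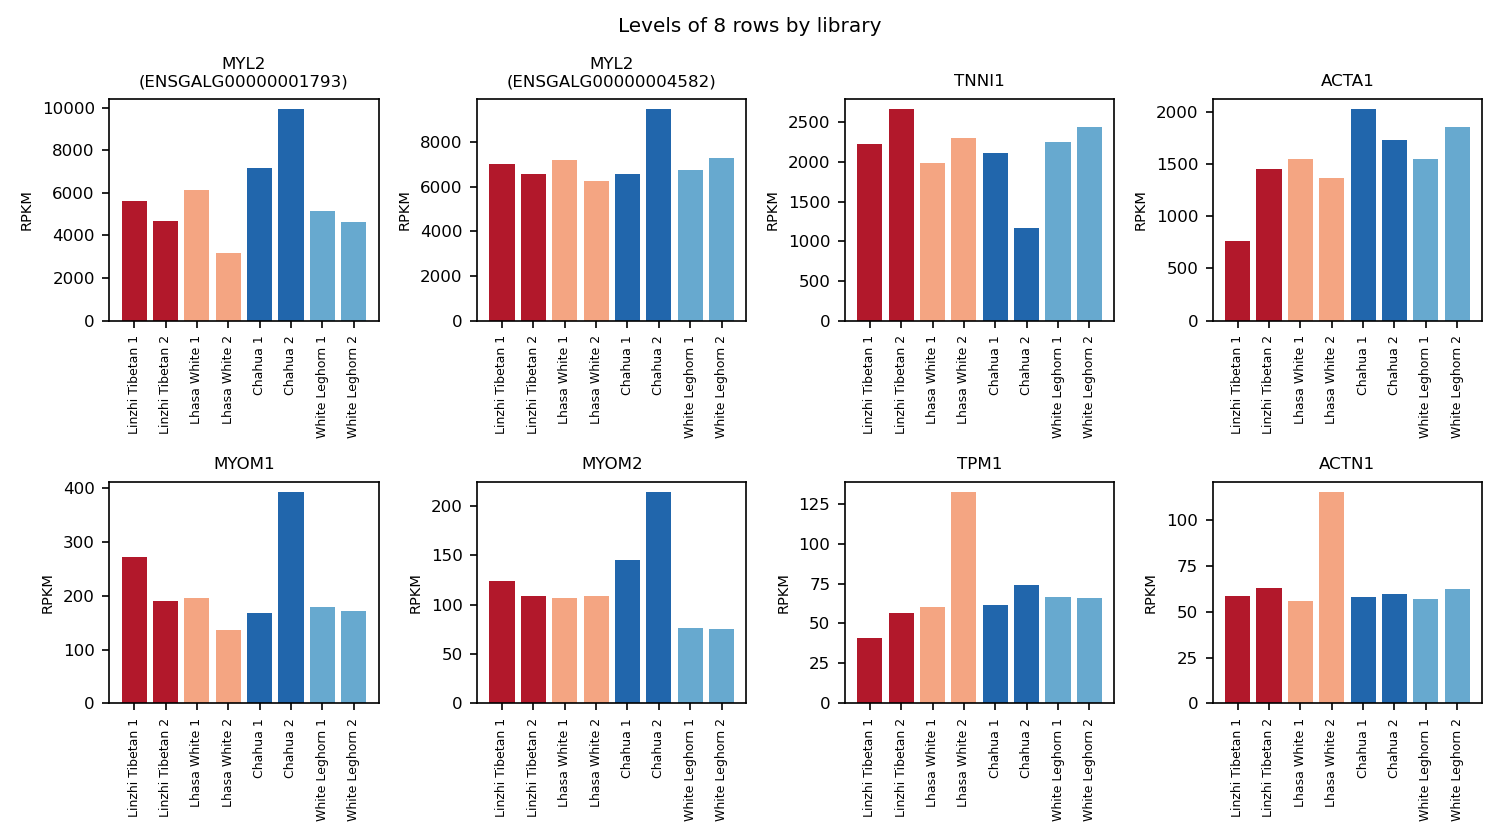
RPKM of 8 rows in each of the 8 libraries, 1 panel per row, with the axis of each panel starting at 0. Bars are coloured by breed and carry no error, since each is a single library. TPM1 and ACTN1 peak in Lhasa White 2, both MYL2 rows and MYOM1 peak in Chahua 2, TNNI1 is lowest in Chahua 2, ACTA1 is lowest in Linzhi Tibetan 1, and MYOM2 is highest in both Chahua libraries and lowest in both White Leghorn libraries.

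The spread of the members was concentrated in Lhasa White 2 and Chahua 2. Chahua 2 was the highest library for 17 of 41 members (41.5%, against 25.2% of all tested genes) and the lowest for 4 (9.76%, against 18.4%). Lhasa White 2 was the lowest library for 11 members (26.8%, against 9.16% of all tested genes) and the highest for 6 (14.6%, against 22.8%). On the log2(RPKM + 1) scale, 12 members in Lhasa White 2 lay more than 0.5 from their mean over the 8 libraries, 7 above and 5 below (29.3%, against 14.2% of all tested genes). In Chahua 2 there were 11 such members, 9 above and 2 below (26.8%, against 17.6%), and in each other library there were 2 to 4. The median log2 range of a member was 0.99 over 8 libraries and 0.55 over the 6 others, against 0.69 and 0.49 for all tested genes. For members of at least 10 RPKM on average these medians were 0.92 and 0.52, against 0.59 and 0.42 for all tested genes of that level. A range over fewer libraries cannot be larger, and ranges without any other pair of libraries were not taken. These shares and ranges are descriptions of the libraries and were not tested.

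Differences between the libraries of a breed were taken after adding 1 to each RPKM. Within Lhasa White, 7 of 41 members (17.1%, against 6.30% of all tested genes) differed more than 2-fold between the libraries. They were MYL4, MYL1, TPM1, PDLIM1, ACTN1, PDLIM3 and MYH1B, all higher in Lhasa White 2. Within Chahua the number was 2, PDLIM3 and MYOM1, a smaller share than over all tested genes (4.88% against 7.90%). Linzhi Tibetan had 2, TNNT3 and TNNC2 (4.88% against 3.42%), and White Leghorn had 1, MYL1 (2.44% against 1.29%). By RPKM without the added 1, some low members also differed more than 2-fold. Lhasa White 2 held 0.46 times the TNNC2 and 2.44 times the MYOZ1 of Lhasa White 1. Linzhi Tibetan 2 held 4.09 times the MYH1B of Linzhi Tibetan 1. The median absolute log2 difference of a member between the libraries of a breed was highest in Chahua at 0.42, followed by 0.32 in Lhasa White, 0.30 in Linzhi Tibetan and 0.13 in White Leghorn. Over all tested genes these medians were 0.32, 0.21, 0.20 and 0.11 in the same order.

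**Figure D3:**
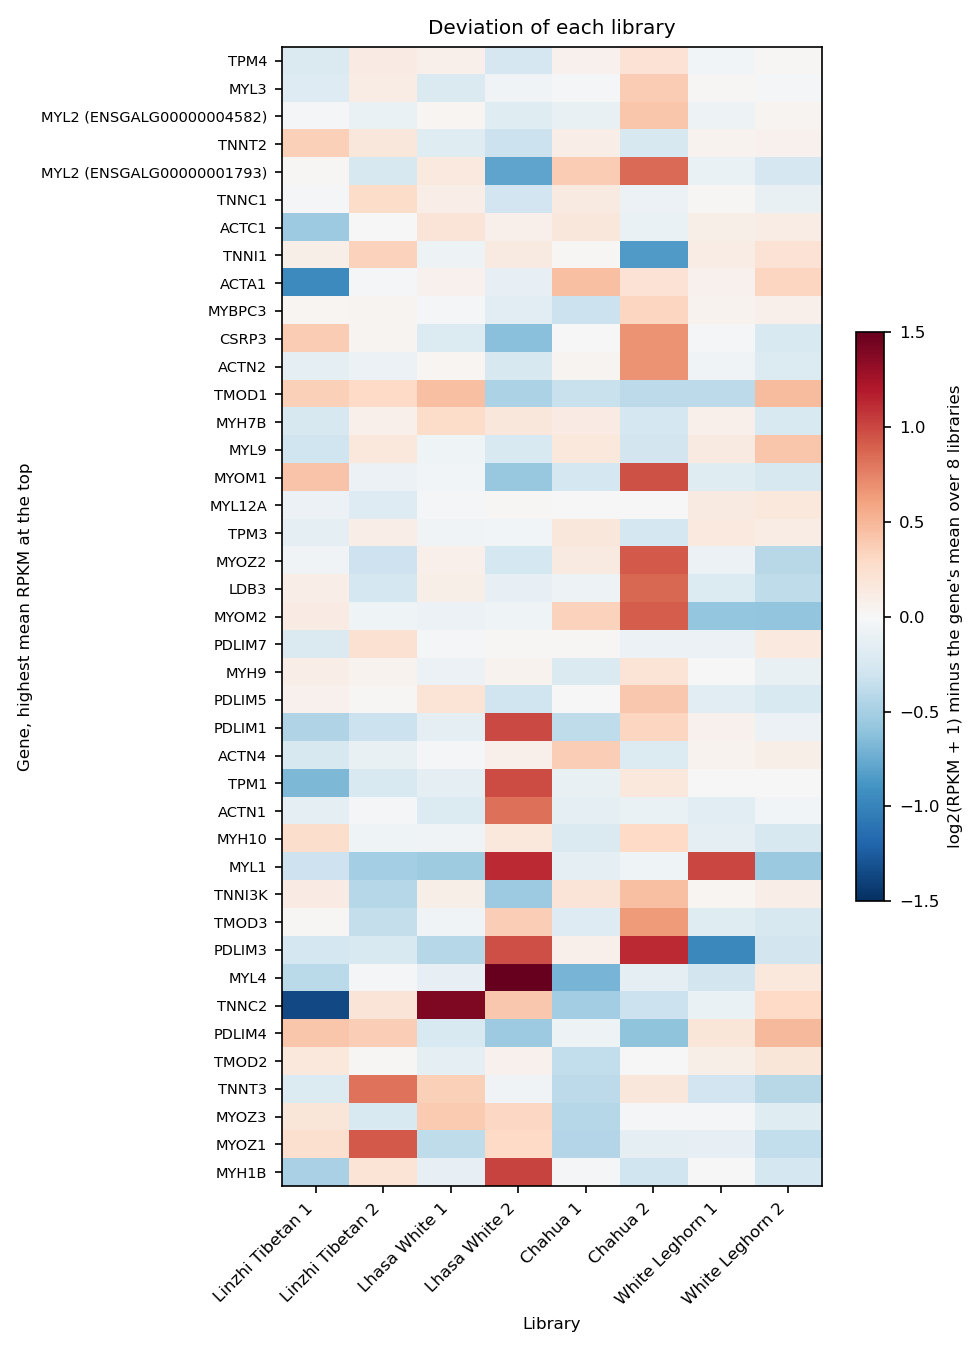
Deviation of each member in each library from its mean over the 8 libraries, on the log2(RPKM + 1) scale, with colour for the sign and size. The Lhasa White 2 and Chahua 2 columns hold most of the strong colours, and the Chahua 2 column is mainly above the mean for MYOM1, MYOM2, MYOZ2, LDB3, ACTN2 and CSRP3.

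Breeds were compared in limma across all 11556 genes, with Benjamini-Hochberg adjustment and a threshold of 0.05. For any difference among the 4 breeds, 0 of 41 members passed (0% of all tested genes), with 2 members at an unadjusted p under 0.05 (6.52% of all tested genes) and 0 passing in limma-voom on recovered reads, where 2 had an unadjusted p under 0.05. Those members were MYOM2, with a limma adjusted p of 0.471, and PDLIM4, with a limma adjusted p of 0.687. PDLIM4, an actin-binding adaptor, lay between 2.86 and 7.23 RPKM.

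No member passed in any of the 6 breed pairs, and all 6 pairs share libraries with each other. Between Linzhi Tibetan and Lhasa White 0 members passed (0% of all tested genes), with 5 at an unadjusted p under 0.05 (7.81% of all tested genes). Linzhi Tibetan against Chahua gave 0 (0%), with 5 unadjusted (7.06%), and Linzhi Tibetan against White Leghorn gave 0 (0%), with 3 unadjusted (6.14%). Lhasa White against Chahua gave 0 (0.00865%), with 4 unadjusted (5.18%), and Lhasa White against White Leghorn gave 0 (0%), with 2 unadjusted (4.04%). Chahua against White Leghorn gave 0 (0%), with 5 unadjusted (7.87%). In limma-voom, 0 members passed in each pair, and 5, 5, 1, 3, 2 and 4 had an unadjusted p under 0.05 in the same order.

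The smallest p among the pairs belonged to MYOM2 between Chahua and White Leghorn. Its log2 difference was 1.21 (SE 0.186, 2 libraries each), with a limma adjusted p of 0.224. Across the 17 other settings the difference stayed between 0.94 and 1.49 and the adjusted p between 0.0575 (without Chahua 1) and 1 (without White Leghorn 2), so it passed in none. Without Lhasa White 2 and Chahua 2 together it was 0.94, with an adjusted p of 0.254.

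Breeds could also be read by order alone. Both Chahua libraries lay above the other 6 for 5 of 41 members (12.2%, against 2.28% of all tested genes), namely MYL2 (ENSGALG00000001793), MYOM2, ACTN2, MYOZ2 and TNNI3K, and below them for 0 (6.12% of all tested genes). Chahua 2 is among the libraries that stand apart, and for all 5 it was higher than Chahua 1. Linzhi Tibetan lay above for 1 member, TNNT2 (4.28% of all tested genes), and below for 2, TPM1 and MYL12A (6.27%). Lhasa White lay above for 3, MYH7B, MYOZ3 and TNNC2 (4.02%), and below for 0 (1.55%). White Leghorn lay above for MYL12A (5.88%) and below for MYOM2 (4.47%).

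Highland and lowland breeds, grouped here from the breed names, were also compared. The standard errors, p-values and intervals of this contrast measure spread between libraries within a breed. Variation between the breeds of a group is left out of them, and altitude cannot be told apart from breed. In that contrast 0 of 41 members passed (0.00865% of all tested genes), with 1 at an unadjusted p under 0.05 (3.13% of all tested genes), and limma-voom likewise gave 0 and 1. Fitted means were higher in highland breeds for 19 members and lower for 22. Their median log2 difference was -0.01, beside 0.03 over all tested genes, of which 58.0% were higher. Differences ran from -0.52 (ACTA1) to 0.54 (MYOZ1). MYOZ1 rests on few reads, and its difference was 0.86 with a pseudocount of 0.1 and 0.90 in limma-voom, without passing.

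ACTA1 was the member with an unadjusted p under 0.05. It averaged 1286 RPKM ± 354 (SD, n = 4) in highland and 1791 RPKM ± 201 (SD, n = 4) in lowland libraries. The log2 difference was -0.52 (SE 0.207, 95% interval -1.01 to -0.04), with a limma adjusted p of 0.999. The libraries overlapped, because Lhasa White 1 at 1552 RPKM was above White Leghorn 1 at 1551, and without Linzhi Tibetan 1 the difference was -0.29. For MYOZ1 the 95% interval was -0.03 to 1.11, for TNNI3K -0.81 to 0.05 and for MYL12A -0.33 to 0.04. No member had highland and lowland libraries that did not overlap, a state that 0.935% of all tested genes showed with highland higher and 0.597% with highland lower. The intervals of the 10 members of highest level differed in width and place. TNNT2 averaged 7038 RPKM ± 1539 (SD, n = 4) against 6880.1 ± 713 (SD, n = 4), with a log2 interval of -0.32 to 0.34. The TNNC1 interval was -0.33 to 0.38, that of MYBPC3 -0.41 to 0.30, that of TPM4 -0.49 to 0.23, that of MYL3 -0.55 to 0.19 and that of ACTC1 -0.49 to 0.22. For MYL2 it was -0.52 to 0.24 in the row ENSGALG00000004582 and -0.98 to 0.11 in the row ENSGALG00000001793, and for TNNI1 it was -0.21 to 0.71.

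**Figure D4:**
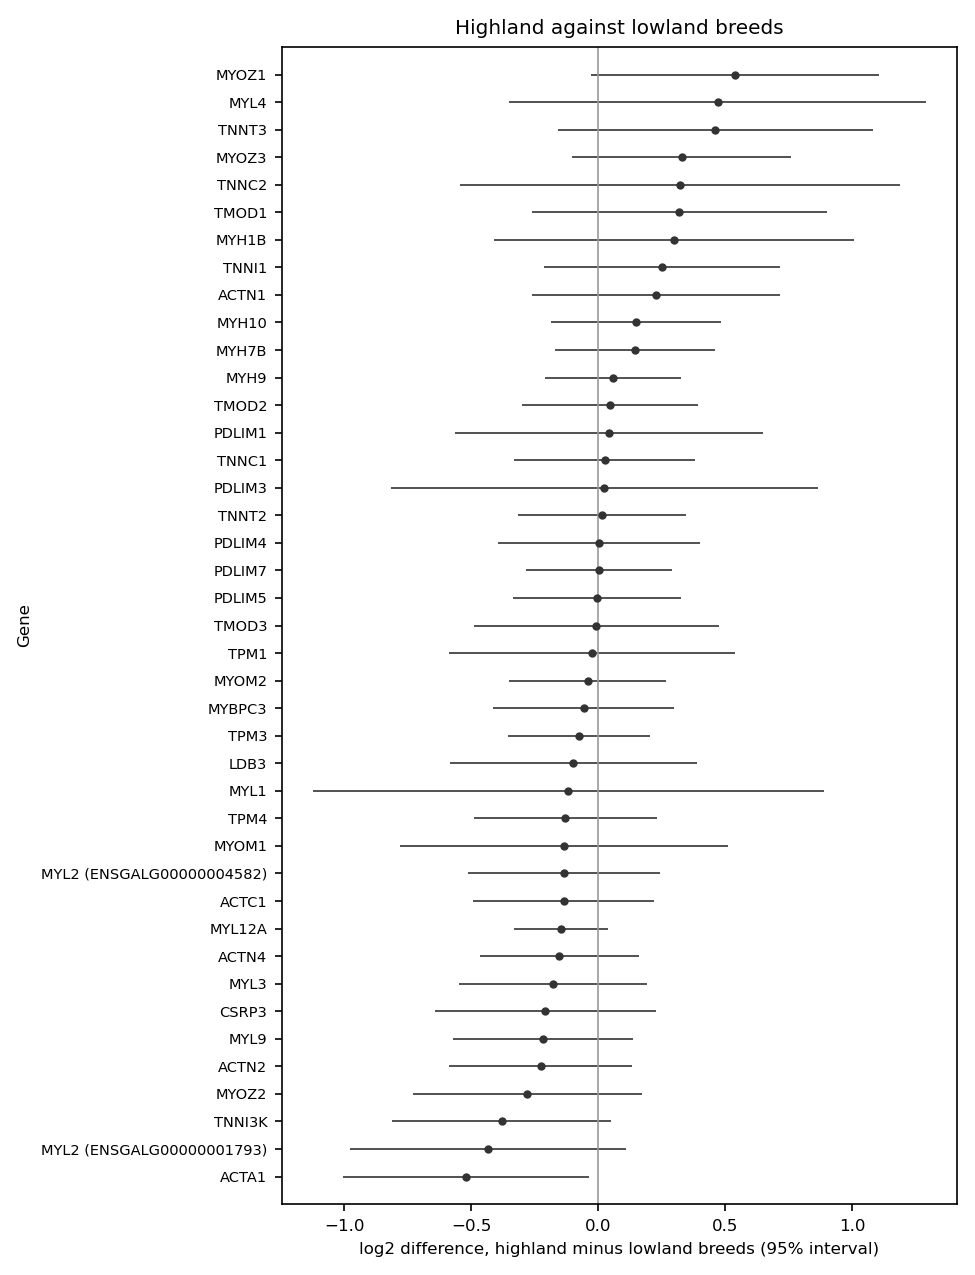
Fitted log2 difference of each member, highland minus lowland breeds (4 libraries each), on the log2(RPKM + 1) scale with 95% intervals from limma. The intervals measure spread between libraries within a breed, not between breeds. All intervals include 0 except that of ACTA1, which runs from -1.01 to -0.04.

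For MYL1 and TMOD1 the libraries with transcripts of the female-specific W chromosome did not overlap with those without. ATP5A1W, a W-linked gene, reached 398 to 496 RPKM in Lhasa White 2, both Chahua libraries and White Leghorn 1, and at most 4.02 in the other 4. MYL1 ranged from 25.4 to 62.5 RPKM where W-linked transcripts were present and from 18.9 to 22.7 in the others, without overlap. It was the only member higher in this way, 1 of 41 (2.44%, against 1.43% of all tested genes). TMOD1 was the only member of the 41 placed on the Z chromosome by its symbol in GRCg7b. Its low libraries were Lhasa White 2 with 279 RPKM, Chahua with 308 and 295, and White Leghorn 1 with 295. Its high libraries were Linzhi Tibetan with 499 and 478 RPKM, Lhasa White 1 with 529 and White Leghorn 2 with 541. TMOD1 was the only member lower without overlap, 1 of 41 (2.44%, against 2.23% of all tested genes). Both member shares were near those over all tested genes.

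A limma fit with breed and the presence of W-linked transcripts, added after these values were seen, gave log2 1.60 for MYL1 (SE 0.152, adjusted p 0.00913). It was the only member called of 41, where 26 of 11556 genes were called (0.225%). The coefficient rests on Lhasa White and White Leghorn, the breeds with 1 library of each kind. Within these breeds MYL1 in Lhasa White 2 was 3.24 times its level in Lhasa White 1. White Leghorn 2 held 0.33 times the level of White Leghorn 1. Lhasa White 2 also stood apart in MYH7, MYH15 and the fibroblast and matrix markers. Within Lhasa White these differences cannot be told apart from the presence of W-linked transcripts. In Chahua, where both libraries held W-linked transcripts, MYL1 was at 25.4 and 27.1 RPKM. The call was lost without Lhasa White 1 (adjusted p 0.366), Lhasa White 2 (0.406), White Leghorn 1 (0.165) or White Leghorn 2 (0.161), each of which leaves 1 breed with both kinds. For TMOD1 the same fit gave -0.90 (SE 0.137, adjusted p 0.110), with 0.0916 to 1 in the 15 alternatives and no call in any.

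**Figure D5:**
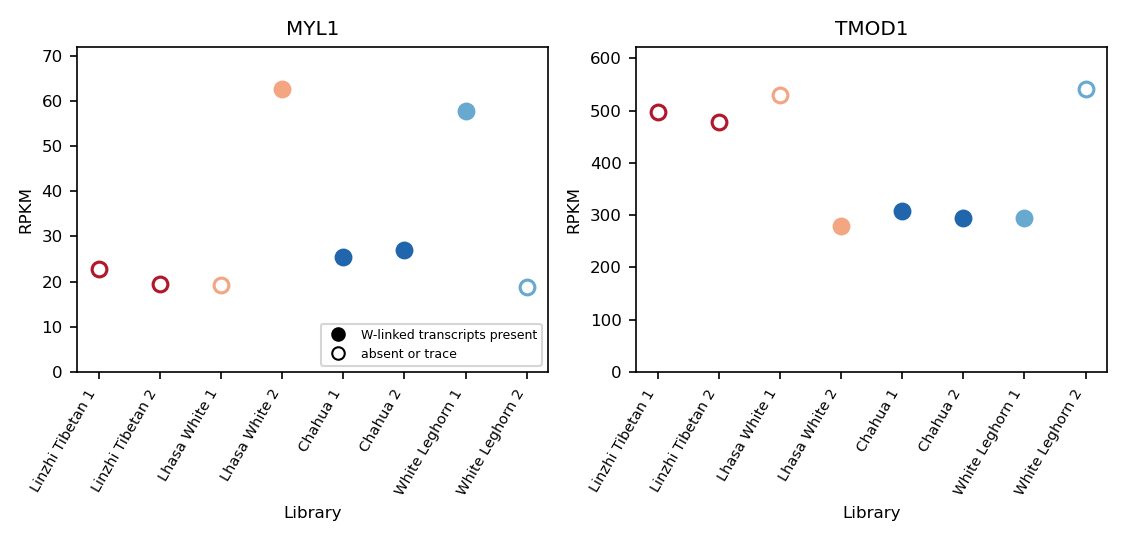
RPKM of MYL1 and TMOD1 in the 8 libraries, coloured by breed, with filled circles where W-linked transcripts were present (ATP5A1W of at least 100 RPKM) and open circles elsewhere. MYL1 is above 25 RPKM in all 4 libraries with them, and TMOD1 lies between 279 and 308 RPKM there against 478 to 541 in the other 4.

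Partner genes of the sarcomere and Z-disc were read from a separate list of 45 symbols covering intermediate filaments, capping proteins, chaperones, ubiquitin ligases and muscle transcription factors. Of these, 39 had a row and 36 passed the limit on low values. None of the 36 passed in limma for any difference among breeds (0% of all tested genes), with 1 at an unadjusted p under 0.05. None passed for highland against lowland either (0.00865% of all tested genes), with 0 unadjusted. Their fitted means were higher in highland breeds for 16 and lower for 20, with a median log2 difference of -0.01. The smallest p was that of NEXN, an actin-binding protein of the Z-disc, with 445 and 475 RPKM in the Linzhi Tibetan pair, 407 and 345 in the Lhasa White pair, 495 and 584 in the Chahua pair, and 394 and 395 in the White Leghorn pair (limma adjusted p 0.713). Both Chahua libraries were again the highest. LMOD2, which lengthens cardiac thin filaments, was lower in Chahua (41.8 and 38.8 RPKM) than in the other breeds (48.9 to 65.3), with a limma adjusted p of 0.793. VCL, the vinculin of cell junctions, spanned 44.8 to 66.4 RPKM and CAPZA1, a subunit of the capping protein at the Z-disc, spanned 72.2 to 111 RPKM, both lowest in Linzhi Tibetan 1 and both with adjusted p = 0.793.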

How the data were processed

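RNA was measured in 8 heart libraries, 2 from each of 4 breeds. The deposited table holds RPKM values per Ensembl gene, made by the authors and named so per the file headers. BWA, without a version, is named in the submitters' processing notes. For the genome build, gene models, counting and strand, the state is "not given in the sources used here". The table itself supplied symbols (2730 genes lack one). Within a gene, RPKM values are whole multiples of 1 read, and with library totals fitted to this, 15872 of 15873 genes (99.99%) gave whole reads within 0.05 reads.

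A gene entered the fit if 2 or more libraries reached 1 RPKM. Values were taken as log2(RPKM + 1), which understates differences of low genes. limma 3.58.1 (R 4.3.3) fitted 1 mean per breed using eBayes moderation with a variance trend, leaving 4 residual degrees of freedom. A moderated F test, highland minus lowland breeds and 6 breed pairs were tested, each adjusted by Benjamini-Hochberg over 11556 genes. The fit was tested on simulated data in which all libraries had the same spread for a gene. No simulated library stood apart as Lhasa White 2 and Chahua 2 do, so that test does not cover such libraries. Chromosomes were looked up by symbol in RefSeq's GRCg7b gene table. Other steps ran in Python 3.11.15 (pandas 2.3.3, NumPy 2.4.6, SciPy 1.17.1, matplotlib 3.10.9).

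Values in every library are given for 23 members: the 12 of highest mean, the 10 with the largest ratio of highest to lowest library after adding 1, and the 4 of lowest p in the highland contrast. Other members named with values, and the breed orders and W-linked fit, were chosen after their values were seen. The members and lists were chosen with earlier results of these data known. Alternatives were a pseudocount of 0.1, no filter, a mean of at least 5 RPKM, median ratio scaling, quantile normalization, a replicate block, a W-linked covariate, limma-voom on recovered reads, and libraries left out.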

Additional observations from a re-analysis of the deposited data

Results flagged for a closer look

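In each group of 4 libraries (highland and lowland) a library was singled out when its gap to the nearest other library exceeded Dixon's 95% critical share of the group's range. Of 82 groups over the 41 members 13 met this (15.9%, against 10.5% over all tested genes), and chance alone gives about 1 in 20.

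Chahua 2 was the distant lowland library for 6 members (14.6%, against 9.86% of all tested genes). It held 5817 RPKM of TNNT2 (7165 to 7346 in the other 3), 142 of TPM3 (185 to 193), 10168 of MYL3 (7609 to 7879), 393 of MYOM1 (168 to 179), 69.2 of MYH10 (47.6 to 50.7) and 27.2 of TMOD3 (14.4 to 14.9).

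Lhasa White 2 was the distant highland library for 5 members (12.2%, against 4.95% of all tested genes). It held 18.9 RPKM of MYL4 (4.32 to 5.95 in the other 3), 62.5 of MYL1 (19.3 to 22.7), 154 of PDLIM1 (55.7 to 69.9), 115 of ACTN1 (55.8 to 62.9) and 29.7 of PDLIM3 (10.6 to 12.3). Both libraries also held more MYH7, BMP-10 and NR2F2 than the other 6, while NPPA was not raised in either and TBX5 and GJA5 were lowest in Chahua 2. The part of atrial tissue in these values was not tested.

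White Leghorn 2 held 541 RPKM of TMOD1, against 295 to 308 in the other 3 lowland libraries, which all held W-linked transcripts. Linzhi Tibetan 1 held 124 RPKM of MYOM2, against 107 to 109 in the other 3 highland libraries.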

How the results depend on the processing

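The count of members called stayed at 0 for any breed difference, for highland against lowland and for the 6 pairs in all 17 alternatives. Of 390 highland minus lowland log2 differences of the 23 named members, 349 kept their sign, 41 reversed and 15 members had a reversal. No reversed difference passed the threshold, and the cause was not tested.

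Without Lhasa White 2 and Chahua 2 the reversed values were 0.0478 for MYL2 (ENSGALG00000004582), -0.0366 for TNNT2, -0.0174 for TNNI1, 0.14 for MYBPC3, 0.0673 for CSRP3, 0.0002 for ACTN2, -0.0642 for PDLIM3, 0.30 for MYOM1, 0.0917 for MYOM2 and -0.0666 for PDLIM1. Median ratio scaling gave -0.0131 for TNNT2, -0.0009 for TNNC1 and -0.0002 for PDLIM3, and quantile normalization -0.0200 for PDLIM3. With the W-linked covariate, TNNT2 was -0.0187, TNNC1 -0.0218, MYL1 0.68 and TPM1 0.22. Leaving out 1 library gave -0.0711 to 0.10 for TNNT2, -0.0721 to 0.12 for TNNC1, -0.27 to 0.0012 for ACTC1, -0.22 to 0.10 for MYBPC3, -0.0648 to 0.71 for TNNC2, -0.33 to 0.37 for PDLIM3, -0.53 to 0.29 for MYL1, -0.31 to 0.25 for TPM1, -0.44 to 0.17 for MYOM1, -0.18 to 0.10 for MYOM2 and -0.24 to 0.32 for PDLIM1.

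The added W-linked fit gave MYL1 1.56 to 1.65 in 15 alternatives and was called in 10. Its limma adjusted p was 0.748 without Lhasa White 2 and Chahua 2. Replicate numbers did not pair the libraries (correlations of deviations -0.332 to 0.17), and the fit with the replicate block also gave 0 calls, with a lowest limma adjusted p of 0.335 in the pairs.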

Other observations

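Among the partner genes, chosen here after their values were seen, Chahua 2 was the highest library for 11 of 36 and the lowest for 11. Over all tested genes it was the highest for 25.2% and the lowest for 18.4%. Lhasa White 2 was the highest for 7 partner genes and the lowest for 7, against 22.8% and 9.16% of all tested genes. For FHL2, a LIM protein of the Z-disc, Chahua 2 was highest with 506 RPKM, while all remaining libraries held 272 to 353. DES, the muscle intermediate filament, had its lowest level in Chahua 2, at 401 RPKM, and 456 to 851 elsewhere. UNC45B, a myosin chaperone, was also lowest in Chahua 2, at 78.4 RPKM against 115 to 139. So was SRF, a transcription factor of contractile genes, at 41.9 against 52.9 to 88.8. In Lhasa White 2, FHL1, a LIM protein of muscle, lay at 143 RPKM against 30.3 to 48.7 elsewhere.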
